A study of Rattus norvegicus with 7 samples.

Results

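Genes of brain phagocytes were followed from 1 to 4 days post injury (dpi) through 4 cDNA clones, those of C1q β (RNABQ08), C1q C (RGIAJ90), osteoactivin (RGIAR28) and natural resistance-associated macrophage protein 2, Nramp2 (RNACD17), among the 6240 features of the array. They were chosen by name, from the clones that the study listed as regulated, to ask which of them are high early and which late. Cerebral cortical contusion was made in male Sprague Dawley rats by weight drop, with 3 animals decapitated at 1 dpi and 4 other animals at 4 dpi. On each array the injured ipsilateral cortex of 1 rat was set against the contralateral uninjured cortex of the same rat in 2 colours. A positive log2 ratio therefore means more signal on the injured side. The contralateral side is the only control analysed here, with no sham-operated or uninjured animal, and both sides come from an animal with a contusion. The tissue was the impact area with the cortex around it, so each ratio averages over all cells in it. A higher ratio in such bulk tissue can come from more cells of a type or from more RNA per cell, and these cannot be told apart.

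Between 2332 and 5208 features had a value on an array, fewest on replicate 3 of 4 dpi, and the array medians lay within 0.01 of 0. The ipsilateral RNA carried Cy5 on replicates 1 and 2 and Cy3 on replicate 3 at 1 dpi, and Cy5 on replicates 2 and 3 and Cy3 on replicates 1 and 4 at 4 dpi. Across features, Pearson's r lay between 0.42 and 0.78 for the 9 pairs of arrays with ipsilateral RNA in the same dye, and between 0.01 and 0.73 for the 12 pairs in opposite dyes. Each array is 1 animal, so the standard deviations (SD) below are between animals. The small number of arrays limits the precision of every mean.

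C1q is the recognition molecule that starts the classical complement pathway. Its A, B and C chains are encoded by neighbouring genes, and in the brain microglia and macrophages are its main source. Osteoactivin, also called Gpnmb, is a transmembrane glycoprotein found in macrophages and other cells rich in lysosomes. Nramp2, also called Slc11a2 or Dmt1, carries ferrous iron and other divalent metals across membranes in many cell types. In spite of its name it is not restricted to macrophages, unlike its relative Nramp1, and its ratio is no marker of phagocytes by itself.

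By RefSeq, on the GRCr8 assembly, the genes C1qb, C1qc and C1qa lie side by side on chromosome 5 with 0 other genes between them. The 250 bases before the start of C1qb and of Gpnmb are shown because both genes were upregulated at both times and higher at 4 dpi. C1qc, of which the same holds, is not shown because no such window was available for it. Capitals mark matches, on either strand, to a pair of short sequences known from genes of macrophages and of cells rich in lysosomes. The first is the M-box TCATGTG, which reads CACATGA on the other strand and is bound by factors of the MITF family. The other is the PU box GAGGAA, which reads TTCCTC on the other strand and is bound by PU.1.
C1qb (GRCr8, chr5:154407828-154408077, minus strand): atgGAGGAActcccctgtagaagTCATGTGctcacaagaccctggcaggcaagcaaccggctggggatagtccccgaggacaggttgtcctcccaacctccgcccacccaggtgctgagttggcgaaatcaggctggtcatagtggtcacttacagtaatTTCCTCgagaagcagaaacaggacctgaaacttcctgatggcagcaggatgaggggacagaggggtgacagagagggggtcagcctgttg
Gpnmb (GRCr8, chr4:79340878-79341127, plus strand): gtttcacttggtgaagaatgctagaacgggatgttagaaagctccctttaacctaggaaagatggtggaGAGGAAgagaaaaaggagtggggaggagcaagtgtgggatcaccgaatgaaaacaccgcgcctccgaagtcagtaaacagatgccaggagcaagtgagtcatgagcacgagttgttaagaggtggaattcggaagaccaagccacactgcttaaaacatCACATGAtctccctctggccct
In C1qb the M-box match lay at -227 to -221 from the start of the gene, and the PU box matches at -247 to -242 and -90 to -85. In Gpnmb the M-box match lay at -22 to -16 and the PU box match at -181 to -176. Of 33469 such windows in the RefSeq table, 3.07% held the M-box and 23.3% the PU box. These motifs do not overlap each other in either window. The 2 windows of Slc11a2 held neither sequence, which says only that these letters were not in them. A match is a description of the sequence, and binding was not measured.

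C1q β had log2 ratios of 0.56, 0.89 and 0.78 on replicates 1 to 3 of 1 dpi, and of 1.22, 1.69 and 2.33 on replicates 1, 2 and 4 of 4 dpi, with no value on replicate 3. Every 4 dpi array with a value lay above every 1 dpi array. The mean was 0.74 ± 0.17 (SD, n = 3) at 1 dpi, a fold of 1.67 over the contralateral side (limma, adjusted p = 0.00331). At 4 dpi it was 1.75 ± 0.56 (SD, n = 3), a fold of 3.36 (adjusted p = 0.00103), which ranked 13 among 3191 features. C1q β was thus upregulated at both times, and its ratio was 1.00 higher at 4 dpi (standard error, SE, 0.24, 95% confidence interval 0.48 to 1.53, adjusted p = 0.0372). Here upregulated means an adjusted p of 0.02 or less with a mean log2 ratio above 0.7, and a difference between the times counts as called where the adjusted p is at most 0.05. The 1 dpi call was lost without replicate 2 of 1 dpi (mean of 0.67), with both time points in 1 fit (adjusted p = 0.0226) and when 0.7 was required on every array. The call of the difference was lost with a dye term (adjusted p = 0.0628) and without any single array other than replicate 1 of 4 dpi (differences from 0.71 to 1.08, adjusted p from 0.0533 to 0.147), while its direction did not change.

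C1q C, the chain that pairs with another C chain inside the C1q molecule, moved much like C1q β. It had log2 ratios of 0.64, 0.65 and 0.82 at 1 dpi and of 1.24, 1.72, 1.75 and 2.04 on replicates 1 to 4 of 4 dpi. The groups did not overlap, with the 4 dpi arrays all higher. The mean at 1 dpi was 0.70 ± 0.10 (SD, n = 3), a fold of 1.63 (adjusted p = 0.00362), just inside the limit of 0.7. It was not called at 1 dpi with each array centred on its median (0.699), with arrays scaled to the same spread (0.66) or without replicate 3 (0.64), nor when 0.7 was required on every array. At 4 dpi the mean was 1.69 ± 0.33 (SD, n = 4), a fold of 3.22 (adjusted p = 9.33e-05), ranked 16 among 3191 features. The difference of 0.99 (SE 0.18, 95% confidence interval 0.60 to 1.37) had an adjusted p of 0.00923, and of 0.0533 without replicate 1 of 1 dpi. On the 6 arrays that measured both chains, the log2 ratio of C1q C minus that of C1q β lay between -0.30 and 0.08. The 2 chains had a Pearson's r of 0.97 over these 6 arrays, which include both time points.

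Osteoactivin had the highest ratios of the 4 genes at each time point. Its log2 ratios were 0.83, 1.93 and 1.33 at 1 dpi and 2.51, 3.21, 3.93 and 3.69 at 4 dpi, in order of replicate. The groups did not overlap, and the lowest 4 dpi array stood above the highest 1 dpi array. The mean was 1.36 ± 0.55 (SD, n = 3) at 1 dpi, a fold of 2.57 (adjusted p = 0.000862), ranked 48 among 4952 features. At 4 dpi it was 3.34 ± 0.63 (SD, n = 4), a fold of 10.1 (adjusted p = 3.14e-05), ranked 3 among 3191 features. The difference was 1.97 (SE 0.31, 95% confidence interval 1.29 to 2.65, adjusted p = 0.00583), a further 3.92-fold, and it also ranked 3 among 3188 features. These calls were kept under every alternative run, each array left out in turn included. The log2 ratio of osteoactivin exceeded that of C1q C by 0.20, 1.28 and 0.51 at 1 dpi and by 1.27, 1.50, 2.18 and 1.65 at 4 dpi. These gaps compare changes between clones, not levels, and were not tested.

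Nramp2 ran the other way. Its log2 ratios were 0.48, 0.71 and 0.87 on replicates 1 to 3 of 1 dpi, and -0.33, 0.16 and 0.06 on replicates 1, 2 and 4 of 4 dpi, with no value on replicate 3. The 1 dpi arrays all lay above the 4 dpi arrays, which stood on both sides of 0. The mean at 1 dpi was 0.69 ± 0.19 (SD, n = 3), a fold of 1.61. It passed the adjusted p (0.00557) but stood just outside the limit of 0.7 and was not called. It was called with a dye term (0.73), without replicate 1 (0.79), and when the limit was set as a fold of 1.6, which was tried after the values had been seen. At 4 dpi the mean was -0.04 ± 0.26 (SD, n = 3, adjusted p = 0.870), and 0.11 without replicate 1. The ratio fell by 0.73 from 1 to 4 dpi (SE 0.17, 95% confidence interval of the difference -1.11 to -0.35, adjusted p = 0.0364). That call was lost with a dye term (adjusted p = 0.0525), with scaled arrays (0.0567) and without any single array other than replicate 2 of 4 dpi (differences from -0.83 to -0.58, adjusted p from 0.0515 to 0.140), again with no change of direction.

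**Figure D1:**
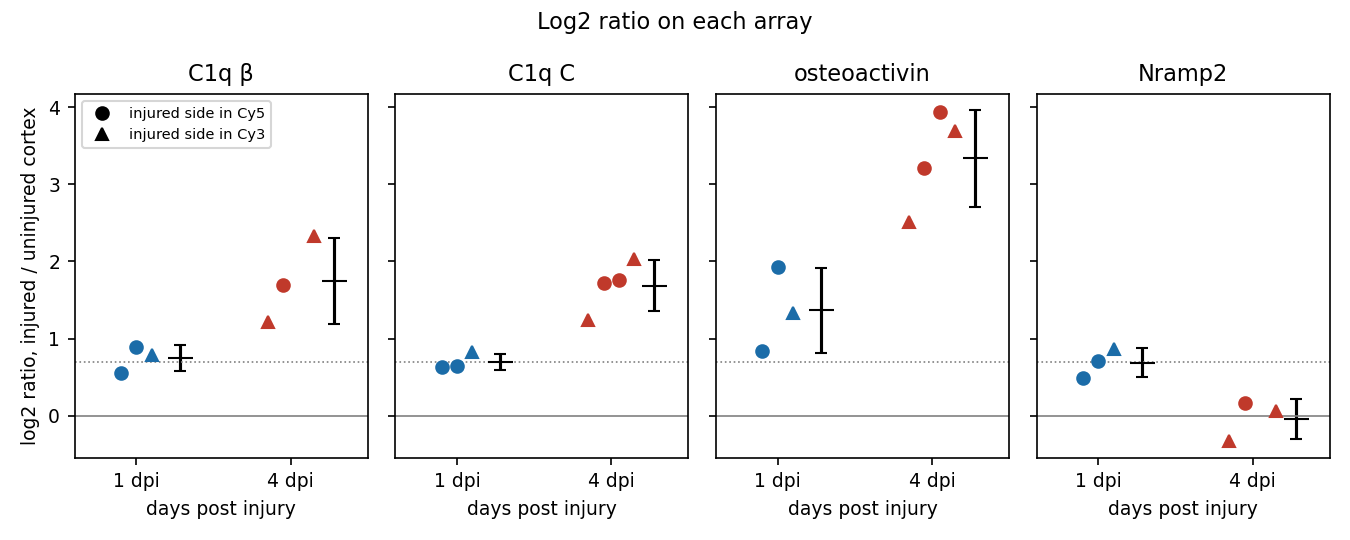
Log2 ratio of injured to uninjured cortex (y axis) on each array (points), by day post injury (x axis), for C1q β, C1q C, osteoactivin and Nramp2, with the mean and SD as a cross with bars, circles for injured-side RNA in Cy5, triangles for Cy3 and a dotted line at the limit of 0.7. Osteoactivin moves from 0.83 to 1.93 at 1 dpi up to 2.51 to 3.93 at 4 dpi, both C1q chains move up to a lesser extent, and Nramp2 returns to around 0.

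Side by side, 3 of the 4 genes were called upregulated at 1 dpi, against 3.9% of 4952 features tested, and the same 3 at 4 dpi, against 2.63% of 3191 features. The ratio was higher at 4 dpi for 3 of the 4, where 3.48% of 3188 features were called, and lower for Nramp2, where 1.51% were called. Without replicate 1 of 1 dpi, as with the replicate block, osteoactivin alone kept its call, so that 1 of the 4 was higher and 0 lower. At 1 dpi the 3 became 1, osteoactivin, with 0.7 required on every array. In 10.9% of the features every 4 dpi array with a value lay above every 1 dpi array, as for C1q β, C1q C and osteoactivin, and in 9.07% below, as for Nramp2. Over all features tested the median log2 ratio was 0.01 at 1 dpi and -0.01 at 4 dpi, and the median difference 0.01. The 4 clones were taken from lists of regulated clones made on these same arrays, so their counts are not independent evidence. C1q β, C1q C and osteoactivin were above the contralateral side on every 1 dpi array already, and 1.1% of the 3188 features were upregulated at both times.

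**Figure D2:**
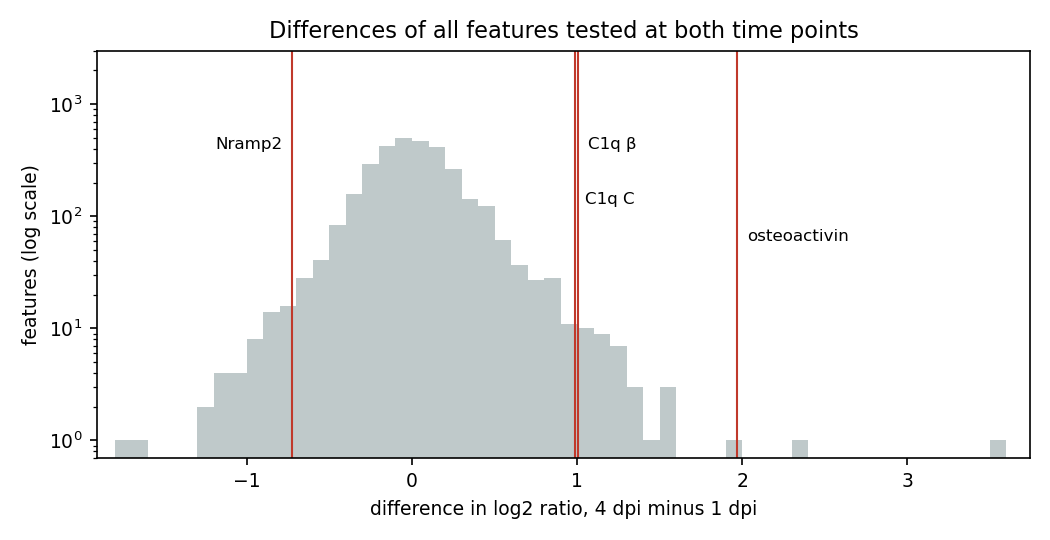
Number of features (y axis) by difference in mean log2 ratio, 4 dpi minus 1 dpi (x axis), for the 3188 features tested on both days, the 4 genes marked. Osteoactivin (1.97) stands at the upper end, C1q β (1.00) and C1q C (0.99) next to each other below it, and Nramp2 (-0.73) in the lower tail.

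The direction was the same within each dye. With ipsilateral RNA in Cy5 the difference between the times was 0.97 for C1q β, 1.10 for C1q C, 2.19 for osteoactivin and -0.44 for Nramp2. With ipsilateral RNA in Cy3 it was 0.99, 0.82, 1.76 and -1.0 in the same order. Each of these rests on 1 or 2 arrays per time point and has no test. Replicate 1 of 4 dpi had the lowest ratio of its group for all 4 genes, and for 6 of the 14 other listed immune, lysosomal and iron clones with at least 3 values at 4 dpi. How often this array was the lowest over all features was not counted, and whether it stands apart as a whole was not tested.

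Against the C1q chains, Nramp2 parted between the times. The log2 ratio of C1q C minus that of Nramp2 was 0.15, -0.07 and -0.05 on replicates 1 to 3 of 1 dpi and 1.57, 1.56 and 1.98 on replicates 1, 2 and 4 of 4 dpi. At 1 dpi the gap stood on both sides of 0, and at 4 dpi it was far above 0 on each array. Pearson's r between Nramp2 and the other 3 lay between -0.64 and -0.57 over 6 arrays, and r among C1q β, C1q C and osteoactivin between 0.94 and 0.97 over 6 or 7 arrays. All these points share the arrays and the split by day.

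The features most like each gene were sought among those with a value on all 7 arrays, by Pearson's r over the arrays that measured the gene. They are the highest of 2189 or 2190 features over 6 or 7 arrays that include both days. Such a pick has a high r by selection, and shared regulation was not tested. For C1q C the first was α2-macroglobulin (RGIAO94), a plasma and tissue inhibitor of proteases, with an r of 0.99 over 7 arrays. It had log2 ratios of 0.40, 0.17 and 0.39 at 1 dpi and of 1.20, 1.74, 1.83 and 2.10 at 4 dpi. Its days did not overlap, as those of C1q C, to which it was matched, and no test is given here. For osteoactivin, spermidine/spermine N1-acetyltransferase (RNABH03), which acetylates polyamines for breakdown, came after the unnamed clone RGIAQ46, both with an r of 0.98 over 7 arrays. For Nramp2 the first was prothymosin α (RNABM91), a small acidic nuclear protein, with an r of 0.99 over 6 arrays and means of 0.68 at 1 dpi and 0.28 at 4 dpi. For C1q β the 3 most alike features had no listed name (RGIAQ46, RNABO24 and RNAA48, r from 0.97 to 0.99 over 6 arrays). RGIAQ46 was among the first 3 for C1q β, C1q C and osteoactivin, although its own means were only -0.18 and 0.12, since r ignores the size of a change.

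Other clones came from 5 lists of complement and Fc receptor, antigen presentation, lysosome, iron handling and other immune genes, many of which cells other than phagocytes also express. All were listed by the study as regulated on these same arrays, so their direction is no independent evidence. Of the 19 clones used, 6 were called upregulated and 2 downregulated at 1 dpi, against 3.9% and 1.51% of all features tested, with a median log2 ratio of 0.38. Without replicate 2 of 1 dpi 3 of 15 clones were upregulated and 3 downregulated, and with both time points in 1 fit 3 of 19 were upregulated and 2 downregulated. At 4 dpi 11 of 14 tested were upregulated and 0 downregulated, against 2.63% and 0.376% of all features, with a median of 0.95, and with 0.7 required on every array 5 of 14 were upregulated. The ratio was higher at 4 dpi for 6 of 14 and lower for 0, against 3.48% and 1.51%, with a median difference of 0.58. With the replicate block 3 of 13 were higher, and without replicate 2 or 3 of 1 dpi 4 of 13.

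**Figure D3:**
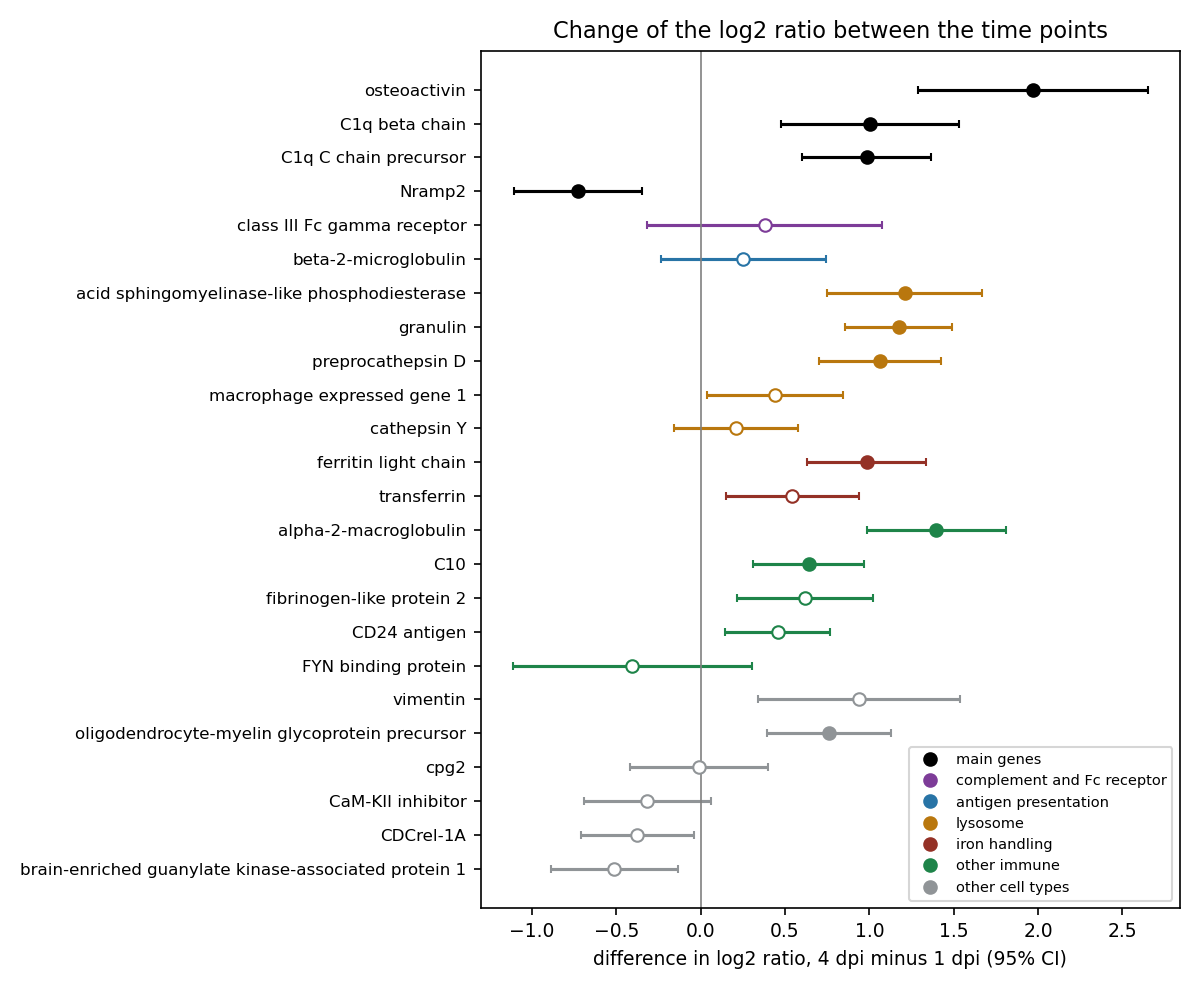
Difference in mean log2 ratio, 4 dpi minus 1 dpi, with its 95% confidence interval (x axis), for the 4 genes and the other listed clones tested at both times (y axis). Filled markers are the called differences, with an adjusted p of at most 0.05, open markers the others, and colours the lists. Osteoactivin (1.97) leads, cathepsin D, granulin and ferritin light chain lie near 1, and Nramp2 (-0.73) is the only filled marker below 0 among the clones shown.

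In the complement and Fc receptor list, both clones were upregulated at 1 dpi (3.9% of all features), and neither was with both time points in 1 fit (adjusted p = 0.0470 for C3 and 0.0504 for the Fcγ receptor). Complement C3, on which all complement pathways meet, had log2 ratios of 0.78 and 1.28 on replicates 1 and 2 of 1 dpi (mean 1.03, adjusted p = 0.00421). Its values of -0.14 and 1.19 on replicates 1 and 2 of 4 dpi were too few for the test. The class III Fcγ receptor (RNABC93), by which phagocytes bind IgG, had log2 ratios of 0.76, 0.95 and 0.81 at 1 dpi and of 0.05, 1.51, 1.74 and 1.58 at 4 dpi. Replicate 1 of 4 dpi stood below all 1 dpi arrays and the other 3 above them. The mean at 1 dpi was 0.84 ± 0.10 (SD, n = 3), with an adjusted p of 0.00131, and that at 4 dpi 1.22 ± 0.79 (SD, n = 4), with an adjusted p of 0.0125. Both were called, the latter not without replicate 2, 3 or 4 of 4 dpi (means from 1.05 to 1.12, adjusted p from 0.0488 to 0.0698). The difference of 0.38 did not pass the test (adjusted p = 0.572), and was 0.77 (adjusted p = 0.0150) without replicate 1 of 4 dpi.

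Osteoactivin is found in cells rich in lysosomes, and 8 lysosomal and phagosomal clones were listed, of which 6 could be used. The values under the IDs of the other 2, cathepsins B and L, did not match their listed fold changes, so which genes they measure is unclear. Their means were -0.12 and -0.01 at 1 dpi and -0.03 and -0.27 at 4 dpi, and none was called. At 1 dpi 1 of 6 was upregulated (3.9% of all features), at 4 dpi 5 of 5 tested (2.63%), and 3 of 5 had a higher ratio at 4 dpi than at 1 dpi (3.48%). The 1 dpi count was 2 of 6 without replicate 1, 0 of 4 without replicate 2 or 3 and 0 of 6 with both time points in 1 fit, and the 4 dpi count 3 of 5 with 0.7 on every array. The medians were 0.25 at 1 dpi and 1.02 at 4 dpi. Granulin (RGIAA16), the precursor of peptides handled in lysosomes, had log2 ratios of 0.03, -0.13 and -0.35 at 1 dpi and of 0.91, 0.92, 1.02 and 1.25 at 4 dpi. Its groups did not overlap, and the means differed by 1.17 (adjusted p = 0.00198). Cathepsin D (RGIAB71), an aspartic protease of the lysosome, had means of 0.08 ± 0.19 (SD, n = 3) at 1 dpi and of 1.15 ± 0.27 (SD, n = 4) at 4 dpi, a difference of 1.06 (adjusted p = 0.00583). The acid sphingomyelinase-like phosphodiesterase (RNABR08) had -0.19 (n = 2) and then 1.02 ± 0.34 (SD, n = 3), a difference of 1.21 (adjusted p = 0.00923). Unlike C1q and osteoactivin, none of these 3 clones was upregulated at 1 dpi.

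The other lysosomal clones showed no called difference. Macrophage expressed gene 1 (RNABF77), a pore-forming protein of phagocytes, had means of 0.42 ± 0.38 (SD, n = 3) and 0.86 ± 0.22 (SD, n = 4), with a call at 4 dpi (adjusted p = 0.00103) and a difference of 0.44 (adjusted p = 0.204). Cathepsin Y (RNABL31), a lysosomal cysteine protease, had 0.68 ± 0.12 and 0.89 ± 0.30, also called at 4 dpi, with a difference of 0.21 (adjusted p = 0.548). At 1 dpi it passed the adjusted p (0.00475) but not the limit of 0.7, and it was called without replicate 1 (mean of 0.75). Cathepsin K (RNABQ32), a cysteine protease known from osteoclasts, was upregulated at 1 dpi with a mean of 0.85 (n = 2) and had 2 values at 4 dpi, 1.65 and 0.86, too few for the test.

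Nramp2 carries iron, and 2 other clones of iron handling were listed. Upregulated were 0 of 2 at 1 dpi (3.9% of all features) and 2 of 2 at 4 dpi (2.63%), the latter 1 of 2 without replicate 3 or 4 of 4 dpi or with 0.7 on every array. The ratio was higher at 4 dpi for 1 of 2 (3.48%), for 2 of 2 without replicate 2 of 4 dpi and for 0 of 2 with the replicate block. Ferritin light chain (RGIAA74), a subunit of the iron store of cells, had log2 ratios of 0.05, 0.29 and -0.13 at 1 dpi and of 0.91, 0.80, 1.27 and 1.24 at 4 dpi. The groups did not overlap, and the difference of 0.98 had an adjusted p of 0.00678, a call that was lost with the replicate block. Transferrin (RNAA26), the iron carrier of plasma, which oligodendrocytes also make, had means of 0.27 ± 0.08 (SD, n = 3) and 0.81 ± 0.36 (SD, n = 4). It was upregulated at 4 dpi (adjusted p = 0.00504) but not without replicate 3 (mean of 0.67) or replicate 4 (adjusted p = 0.0234), and its difference of 0.54 did not pass the test (adjusted p = 0.116), except without replicate 2 of 4 dpi (0.69, adjusted p = 0.0285).

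Among antigen presentation clones, MHC class II DMβ (RNABR27), which helps load peptides, was upregulated at 1 dpi with values of 0.94 and 1.43 and had 1.11 and 1.33 on the arrays of 4 dpi that measured it. RT1 class Ib (RGIBC16), a nonclassical MHC class I molecule, was downregulated at 1 dpi with a mean of -1.10 ± 0.29 (SD, n = 3). β2-microglobulin (RNABI87), the light chain of MHC class I, was not called at either time, with means of 0.39 and 0.65, and at 4 dpi it was called without replicate 1 (mean of 0.88). Among other immune clones, FYN binding protein (RGIAO59), an adaptor of T cells and myeloid cells, was upregulated at both times (1.89 ± 0.48 and 1.49 ± 0.71), and at 4 dpi its call was lost without replicate 3 (adjusted p = 0.0330). The interleukin-1 receptor accessory protein (RNACA10) was upregulated at 1 dpi with a mean of 0.84, and CD24 (RGIAI89) at 4 dpi with a mean of 0.83. The clone listed as C10 (RGIAI44) was higher at 4 dpi by 0.64 (adjusted p = 0.0311) from a mean of -0.68, and without any single array but replicate 2 of 4 dpi that call was lost (adjusted p from 0.0554 to 0.146). Fibrinogen-like protein 2 (RGIAL68) was downregulated at 1 dpi with a mean of -0.98.

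Clones of other cell types, also taken from the study's lists of regulated clones, were measured in the same tissue. Of 8 such clones, 1 was upregulated and 4 were downregulated at 1 dpi, against 3.9% and 1.51% of all features. At 4 dpi 1 of 6 tested was upregulated and 4 were downregulated, against 2.63% and 0.376%. The 4 downregulated clones became 2 at 1 dpi without replicate 2 and 1 at 4 dpi without replicate 3, and with 0.7 on every array 1 and 0. The 5 neuronal clones chosen, among them the GABA-A receptor δ subunit and the CaM-KII inhibitor, had log2 ratios below 0 on every array with a value, from -1.43 to -0.09 at 1 dpi and from -1.26 to -0.39 at 4 dpi. They do not stand for all neuronal genes. Of 6 other listed clones of neurons, 3 were upregulated and 1 downregulated at 1 dpi. These 6 were picked by name after the values were known, and are not all the other neuronal clones listed. Of these, neuropeptide Y had means of 1.45 and 1.14, the orexin precursor of 1.75 and 2.94, and N-copine of -0.85 and -0.38. Vimentin (RNABM67), a filament protein of reactive astrocytes that phagocytes also make, was upregulated at both times (1.37 and 2.31), and its difference of 0.94 did not pass the test (adjusted p = 0.0742) except with scaled arrays or without replicate 3 of 1 dpi or replicate 1 of 4 dpi (adjusted p from 0.0133 to 0.0311). Oligodendrocyte-myelin glycoprotein (RNACB85) was downregulated at 1 dpi (-0.78), though not with a dye term (-0.69), without replicate 1 (-0.66) or without replicate 2 (adjusted p = 0.0331). It had a mean of -0.01 at 4 dpi, a difference of 0.76 (adjusted p = 0.0239). The call of this difference was lost with the replicate block. It was also lost without replicate 1 or 2 of 1 dpi or replicate 1 or 4 of 4 dpi (adjusted p from 0.0594 to 0.126). Albumin, a protein of plasma, was downregulated at 1 dpi (-1.23). Cell composition was not measured, and whether it has a part in the ratios of C1q, osteoactivin and Nramp2 was not tested.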

How the data were processed

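RNA of injured and uninjured cortex from 7 rats was hybridised to 2-colour cDNA arrays, 3 at 1 dpi and 4 at 4 dpi. The authors subtracted the mean local background from the mean spot intensity, left out spots absent or less than 2 times above background, turned the ratio for dye-swapped arrays, normalised each array by Lowess (SMA package for R) and deposited log2 ratios of ipsilateral over contralateral cortex. Spot intensities were not analysed here. Samples were grouped by their labels, and 0 columns belonged to no sample.

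From the deposited log2 ratios, each feature's mean was set against 0, 1 time point at a time, in R 4.3.3 with the functions lmFit and eBayes of limma 3.58.1. P-values were adjusted by Benjamini-Hochberg over all features tested, those with a value on at least 2 arrays at 1 dpi or 3 at 4 dpi. Calls needed an adjusted p of at most 0.02 and a mean log2 ratio beyond 0.7, limits taken from the methods of the study. There the limit is called a mean cut-off but also said to hold for each array, which is run here as an alternative, and the test was SAM (also an alternative, with gaps filled from the 10 nearest features). The difference, 4 dpi minus 1 dpi, was fitted over all 7 arrays and called where the adjusted p was at most 0.05. The fits were tested on simulated data. Alternatives were the test, 1 fit of both times, a dye term, centring, scaling to the same median absolute deviation (MAD), the filter on missing values, the limit, the threshold, a replicate block and each array left out. A feature was tested with an array left out only if at least 2 values were left in the time point.

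Clones were named by the ID lists of the study. Of 252 listed IDs 238 were used, and cathepsins B and L were left out because the log2 values under their IDs lay over 0.2 away from the fold changes listed. The 4 genes are described in full, every usable clone of the lists is counted, and the 3 features most alike are given for each gene. The genes, lists and tests were chosen with earlier results of these data known. Sequences were read from the RefSeq promoter table of GRCr8, where C1qb, Gpnmb and Slc11a2 were matched by symbol, the latter 2 through osteoactivin and Nramp2. Tables and figures were made with pandas 2.3.3 and matplotlib 3.10.9 (Python 3.11.15).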

Additional observations from a re-analysis of the deposited data

Results flagged for a closer look

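Single arrays stood apart in 2 of 21 groups of 4 arrays tested, where chance gives about 1 in 20 groups. The class III Fcγ receptor (RNABC93) had a log2 ratio of 0.048 on replicate 1 of 4 dpi, with the other 3 arrays between 1.51 and 1.74. β2-microglobulin (RNABI87) had -0.055 on the same array, with the others between 0.82 and 0.98.

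The log2 ratio differed between 1 and 4 dpi by the test of the difference itself for all 4 genes, by 1.00 for C1q β, 0.99 for C1q C, 1.97 for osteoactivin and -0.73 for Nramp2. Among the other listed clones the difference was called for cathepsin D (1.06), granulin (1.17), the acid sphingomyelinase-like phosphodiesterase (1.21), ferritin light chain (0.98), α2-macroglobulin (1.40), C10 (0.64) and oligodendrocyte-myelin glycoprotein (0.76), all higher at 4 dpi.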

How the results depend on the processing

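Osteoactivin kept its calls under every alternative run, and both C1q chains kept theirs at 4 dpi. Leaving out each array in turn, the mean of 1 dpi ranged from 0.67 to 0.84 for C1q β, from 0.64 to 0.73 for C1q C and from 0.60 to 0.79 for Nramp2, and that of Nramp2 at 4 dpi from -0.14 to 0.11. The difference ranged from 0.71 to 1.27 for C1q β, from 0.87 to 1.14 for C1q C and from -0.83 to -0.58 for Nramp2. C1q β and Nramp2 have no value on replicate 3 of 4 dpi, so leaving it out does not change their means or differences. It does change the features tested, the variance that eBayes estimates over them and the adjustment. A filter for values on all arrays gives C1q β and Nramp2 no result at 4 dpi or for the difference, and SAM fills the gap (means of 1.83 and -0.11). The 1 dpi call of C1q β (0.74) was lost with both times in 1 fit (adjusted p = 0.0226) and with 0.7 required on every array. That of C1q C (0.70) was lost with 0.7 on every array, with centring (0.699) and with MAD scaling (0.66). Nramp2 at 1 dpi was called with a dye term (0.73) and with a fold limit of 1.6, chosen after seeing the data (0.69), and its 4 dpi mean changed sign with a dye term (0.011). The differences of C1q β and Nramp2 were lost at an adjusted p of 0.02 (1.00 and -0.73) and with a dye term (0.98 and -0.72), and that of Nramp2 with MAD scaling (-0.69).

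Deviations from the group mean of same-numbered animals of the time points had r of -0.17, 0.01 and -0.27 for replicates 1 to 3 over 2190 features. Only replicate 2 carried ipsilateral RNA in the same dye at both times. These values therefore cannot decide whether the numbers pair the arrays. The animals differ between the times, and the labels state no pairing. With the replicate number as a block the differences were 0.73 for C1q β (adjusted p = 0.150), 0.87 for C1q C (0.0512) and -0.69 for Nramp2 (0.177), no longer called, and 23 features were higher and 6 lower at 4 dpi, against 111 and 48 without it. The block leaves replicate 4 of 4 dpi without a partner, and for C1q β and Nramp2 also replicate 3 of 1 dpi.

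With 0.7 on every array, 112 features were up and 26 down at 1 dpi (193 and 75 with the limit on the mean), and 35 up and 1 down at 4 dpi (84 and 12). At an adjusted p of 0.02 the difference was called higher for 55 and lower for 18 features, and with values on all 7 arrays lower for 26. Leaving out each array gave 121 to 196 up and 51 to 103 down at 1 dpi, 72 to 108 up and 4 to 14 down at 4 dpi, and 30 to 125 higher and 7 to 71 lower in the difference. For the other listed clones 759 results under alternatives kept direction and call, 48 lost and 10 gained a call, and 9 changed sign, all from values near 0. These were the difference of cpg2 (0.012 with the block, -0.14 to 0.16 leaving out each array) and, leaving out each array, the means of C10 (-0.10 to 0.056) and oligodendrocyte-myelin glycoprotein (-0.076 to 0.062) at 4 dpi and of ferritin light chain (-0.042 to 0.17) and cathepsin D (-0.024 to 0.15) at 1 dpi. Apart from the filters and the arrays left out, which test fewer features or samples, the cause of these changes was not tested. Features with signal close to background have no value, and how far this limits the ratios was not analysed here.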
